A study of Mus musculus with 8 samples.

Results

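The genes described here are 10 imprinted protein-coding genes, chosen by name: Igf2, Igf2r, Dlk1, Cdkn1c, Grb10, Plagl1, Peg3, Zim1, Mest and Impact. They are 10 of 45731 features in a gene-level table built from the short-read values of HL1 cells. HL1 is a mouse cardiac muscle line established from AT-1 atrial tumour cells, and as a line it stands for 1 cell population grown in culture and not for heart tissue. Nuclei were extracted with urea and detergent into a chromatin pellet and soluble nucleoplasm, and ribosomal RNA was depleted from both. The HL1 cells were grown in medium supplemented with norepinephrine and ascorbic acid, and no treatments were compared. The chromatin group holds 3 short-read libraries and the nucleoplasm group 3, and chromatin RNA was also sequenced as long reads in 2 libraries. In each of these libraries the value of a gene is an abundance within 1 fraction, so that a difference between fractions does not give the amount of RNA per cell.

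Imprinted genes are expressed mainly from 1 parental allele, according to methylation marks set in the germline. They lie in clusters controlled by differentially methylated regions, and several clusters hold a long noncoding RNA made from the allele on which the protein-coding neighbours are silent. Many imprinted genes act on fetal growth: the paternally expressed Igf2 promotes it, while the maternally expressed Igf2r, Cdkn1c and Grb10 restrain it. The values give both alleles together, since the files do not separate them.

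Of the 10 genes, 7 were above 0 in at least 1 short-read library and could be tested, and the entries with the symbol Dlk1, Peg3 or Zim1 were listed at 0 in all 6. With limma on log2(normalized count + 1), called at a Benjamini-Hochberg adjusted p under 0.05, 3 of the 7 were higher in chromatin (Grb10, Impact and Mest), 3 were lower (Igf2, Igf2r and Cdkn1c) and Plagl1 was not called. Over all 30819 features tested, 31.0% were higher in chromatin and 24.9% lower, and with 7 genes these counts cannot be told from that background. On this scale none of the 7 was more than 4 fold higher in chromatin, a class that held 16.7% of all features, and Igf2 and Cdkn1c were just more than 4 fold lower, as were 5.51% of all features. Both classes rest on the settings. With ERCC scaling the log2 differences of Grb10, Impact and Mest were 2.23, 2.37 and 2.31, past 4 fold, and those of Igf2 and Cdkn1c were -1.35 and -1.37, short of it. Mest was also past 4 fold with a pseudocount of 0.1 and with edgeR and DESeq2 (2.21, 2.04 and 2.20), and Cdkn1c was short of it with DESeq2 (-1.98). Without chromatin replicate 3, Igf2 was at -1.62 and Cdkn1c at -1.57; without nucleoplasm replicate 1 or 2 both were also short of 4 fold, between -1.97 and -1.85. Both directions occurred among paternally expressed genes (Igf2 lower, Impact and Mest higher) and among maternally expressed ones (Igf2r and Cdkn1c lower, Grb10 higher). The median log2 difference was 0.15 over the 7 genes and 0.34 over all features tested.

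**Figure D1:**
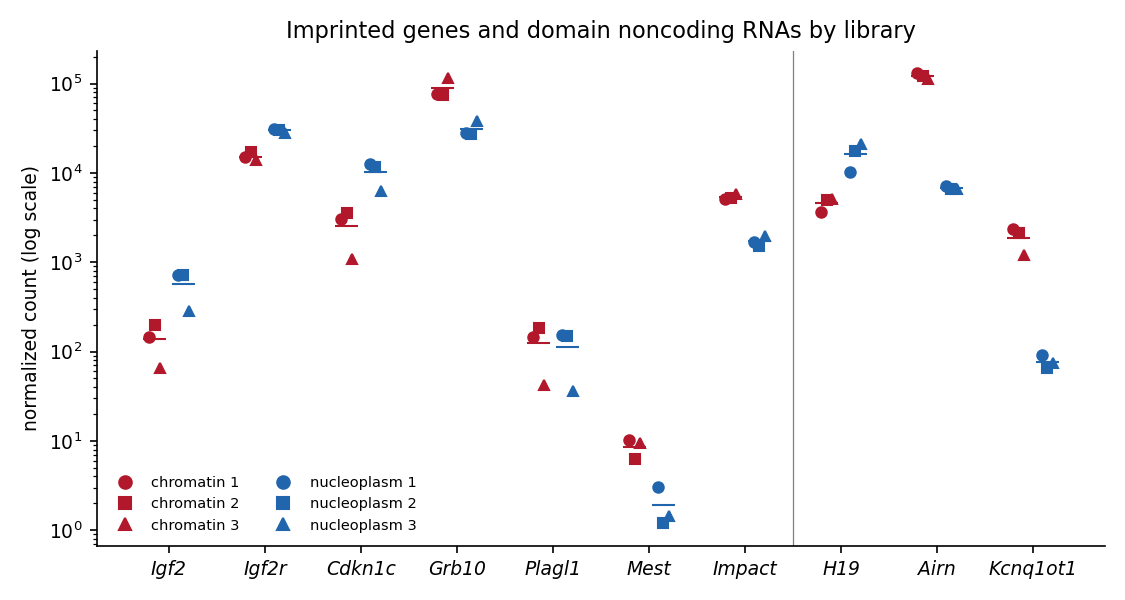
Normalized count (log axis) of the 7 imprinted genes above 0 and, right of the line, of 3 noncoding RNAs of their domains, in chromatin (red) and nucleoplasm (blue) replicates 1 to 3; bars are means. The fractions do not overlap for any gene shown except Plagl1. Over all features tested 31.0% were called higher in chromatin and 24.9% lower, and the share without overlap was not counted. Replicate 3 lies well under replicates 1 and 2 in both fractions for Igf2, Cdkn1c and Plagl1.

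The library labels were checked with RNAs of known location. Malat1, a noncoding RNA kept in the nucleus, was higher in chromatin by 3.82 on the log2 scale, (limma adjusted p = 2.1e-05), and Gapdh, a glycolytic enzyme whose mRNA is exported, was lower with a log2 difference of -2.07 (adjusted p = 5.5e-04). The recovered reads per library ranged from 91657034 to 121773350, so 3 reads, the limit a count of 0 allows, are worth 2.17 to 3.60 normalized counts. Of 10 cardiomyocyte markers 8 had an entry, all above 0, and Myh6 and Tnnt2 had none under the rule for levels. The summed level of these 8 was 171251, 172869 and 127253 in the chromatin libraries and 125496, 136449 and 76473 in those of nucleoplasm, in the order of their replicate numbers. All 4 fibroblast markers had an entry, with Col1a1 between 101002 and 344726 and Lum between 0 and 2.02. Col3a1 and Pdgfra each had a mean of at least 100. Col1a1, with a mean of 183593, is the largest part of the fibroblast sum given below. Of 4 endothelial markers, Cdh5 was at 0 throughout and Pecam1 had a mean of only 12.2, while Kdr was between 808 and 2570 and Tek between 187 and 364. The summed endothelial level was 1708, 1828 and 1049 in chromatin and 2934, 2788 and 1755 in nucleoplasm. The summed fibroblast level was 120607, 135523 and 173689 in chromatin and 258985, 253586 and 460171 in nucleoplasm, so replicate 3 had the lowest cardiomyocyte and endothelial sums and the highest fibroblast sum in both fractions.

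Igf2 encodes insulin-like growth factor 2, a paternally expressed fetal growth factor. The gene lies on chromosome 7 (mm10, positions 142650766 to 142666816, minus strand), and its transcripts start at several promoters. The table holds it as 6 RefSeq transcripts with no assembled locus, and their sum is used as the gene's level. The windows of the starts that received most reads in nucleoplasm are shown here. Each runs from 250 bases before to 50 after the start (RefSeq, GRCm38.p6). Capitals mark the GC box, GGGCGG or CCGCCC, and TATAAA or TTTATA. Each motif was searched on both strands, and matches that share bases within a capital stretch are counted separately.
Igf2 start at 142658804 (chr7:142658755-142659054, minus strand): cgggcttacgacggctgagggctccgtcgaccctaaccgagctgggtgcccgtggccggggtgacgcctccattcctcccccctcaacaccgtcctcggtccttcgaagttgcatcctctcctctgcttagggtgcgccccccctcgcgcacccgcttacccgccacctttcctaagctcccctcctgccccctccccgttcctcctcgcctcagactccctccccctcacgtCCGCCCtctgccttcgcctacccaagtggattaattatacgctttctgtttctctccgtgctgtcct
Igf2 start at 142657496 (chr7:142657447-142657746, minus strand): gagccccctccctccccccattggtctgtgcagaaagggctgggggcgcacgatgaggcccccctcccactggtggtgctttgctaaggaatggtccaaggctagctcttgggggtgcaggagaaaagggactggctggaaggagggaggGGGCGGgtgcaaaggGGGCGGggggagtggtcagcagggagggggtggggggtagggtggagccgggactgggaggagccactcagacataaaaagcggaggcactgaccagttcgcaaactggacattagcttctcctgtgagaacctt
The window of the outer start holds 24 CpG dinucleotides and 1 GC box, and that of the inner start holds 7 CpG dinucleotides and 2 GC boxes. Over 32851 RefSeq windows of this length the median is 7 CpG dinucleotides, 35.7% hold a GC box and 13.6% hold TATAAA or TTTATA. Promoter windows were found for 8 of the 10 genes.

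The Igf2 sum was 147, 200.2 and 65.6 normalized counts in chromatin and 723, 726 and 282 in nucleoplasm, with libraries in the order of their replicate numbers here and throughout. Every nucleoplasm library was above every chromatin library, and replicate 3 was the lowest in both fractions. The log2 difference, chromatin minus nucleoplasm, was -2.08 with a standard error of 0.54 (limma, adjusted p = 0.0158), and all 3 same-numbered pairs had the same sign (-2.29, -1.85 and -2.09). Without chromatin replicate 1, nucleoplasm replicate 1 or nucleoplasm replicate 2 the limma adjusted p was 0.0501, 0.0549 and 0.0561, which loses the call, and with the replicate number as a block it was 1.4e-04.

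The reads of Igf2 were divided among its transcripts differently in each library. The transcript starting at 142657496 was at 0 in the 3 chromatin libraries and at 323, 149 and 159 in nucleoplasm. It was called lower by entry (limma adjusted p = 4.9e-05). Against 3 reads per chromatin library the difference is 67.8-fold. That figure covers counting only and is no lower bound, since a 0 also depends on how reads were divided among the transcripts. The transcript starting at 142658804 was at 18.3, 200.2 and 8.33 in chromatin and at 399, 443 and 122 in nucleoplasm. Chromatin replicate 2 overlapped the nucleoplasm range for that transcript, and its log2 difference of -3.08 (SE 1.21) was not called (limma adjusted p = 0.0842), while with the replicate block it was (adjusted p = 0.026). A predicted transcript starting at 142662270 held 129, 0 and 57.2 in chromatin and 0, 38.4 and 0 in nucleoplasm. It took 87.6% and 87.3% of the Igf2 sum in chromatin replicates 1 and 3, whereas in chromatin replicate 2 the transcript starting at 142658804 took 100%. StringTie divides reads among transcripts that share the same 3′ exons, so the sum is better defined than any of the 6. The remaining transcripts were at 36.0 and 59.9 in nucleoplasm replicate 2 and at 0 elsewhere, or at 0 in every library.

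**Figure D2:**
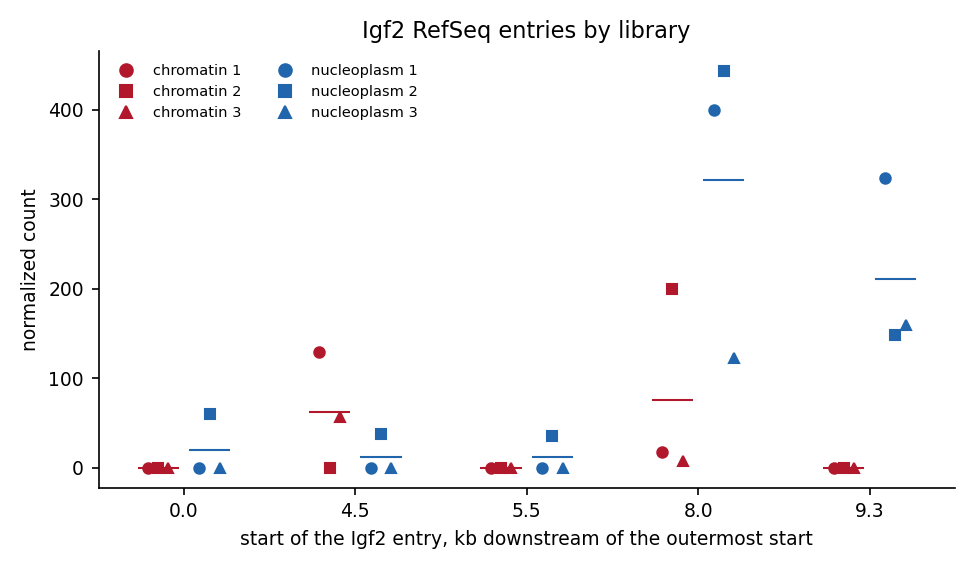
Normalized count of the 5 Igf2 transcripts above 0, by the distance of their start from the outermost annotated start (kb), in chromatin (red) and nucleoplasm (blue) replicates 1 to 3; bars are means. The innermost start is at 0 in all 3 chromatin libraries and at 149 to 323 in nucleoplasm. StringTie divided reads among these transcripts differently in each library, so the Igf2 sum is better defined than any single transcript.

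On the plus strand over Igf2, the antisense gene Igf2os was at 39.6, 44.0 and 27.1 normalized counts in chromatin and at 26.3, 20.4 and 12.3 in nucleoplasm. The lowest chromatin library was just above the highest nucleoplasm library. Its log2 difference of 0.91 (SE 0.39) was not called (limma by entry, adjusted p = 0.113), and it was called with the replicate block (adjusted p = 0.0479). The short-read counting used strand, so these reads are separate from those of Igf2. H19, the maternally expressed noncoding RNA 72.6 kb from Igf2, was at 3606, 5014 and 5139 in chromatin and at 10142, 17692 and 21338 in nucleoplasm, lower in chromatin by a log2 difference of -1.79 (SE 0.30, limma adjusted p = 0.0024). The ratio of H19 to Igf2, which does not depend on how libraries are scaled, was 24.5, 25.0 and 78.4 in chromatin and 14.0, 24.4 and 75.7 in nucleoplasm. The ranges overlapped, and the log2 difference of 0.30 gave p = 0.5 (exact permutation test, two-sided), where 0.1 is the smallest p that 3 libraries against 3 allow. That test does not use the pairs. In each same-numbered pair the ratio was higher in chromatin, by little in replicates 2 and 3.

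Igf2r encodes the cation-independent mannose 6-phosphate receptor, which binds IGF2 and carries it to lysosomes. It lies on chromosome 17 (12682406 to 12769664, minus strand), and the plus-strand noncoding RNA Airn starts 28353 bases downstream of its start, in the intron between exons 2 and 3 of the 48 exons of transcript Igf2r-201. Both windows are shown because the RNAs overlap on opposite strands and moved in opposite directions; capitals mark the same motifs as above.
Igf2r (chr17:12769657-12769956, minus strand): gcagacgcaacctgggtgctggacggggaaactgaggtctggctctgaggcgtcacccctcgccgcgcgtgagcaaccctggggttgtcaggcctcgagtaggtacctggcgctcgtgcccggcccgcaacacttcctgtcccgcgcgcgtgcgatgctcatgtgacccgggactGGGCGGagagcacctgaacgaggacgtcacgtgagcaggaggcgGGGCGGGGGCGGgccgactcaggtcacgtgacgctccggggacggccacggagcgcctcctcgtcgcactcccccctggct
Airn (chr17:12741061-12741360, plus strand): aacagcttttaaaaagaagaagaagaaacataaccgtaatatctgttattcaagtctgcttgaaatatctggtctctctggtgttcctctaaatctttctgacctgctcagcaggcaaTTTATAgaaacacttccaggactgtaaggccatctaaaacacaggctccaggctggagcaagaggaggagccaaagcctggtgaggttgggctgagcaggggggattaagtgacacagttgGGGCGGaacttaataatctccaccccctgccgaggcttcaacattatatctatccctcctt
The Igf2r window holds 34 CpG dinucleotides and 3 GC boxes, and the Airn window holds 3 CpG dinucleotides, 1 GC box and 1 match of the TATA motif.

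Igf2r was at 14953, 16931 and 13877 normalized counts in chromatin and at 30885, 30475 and 28205 in nucleoplasm. The fractions were well separated and each was tight, with all 3 pairs in the same direction. The log2 difference was -0.97 (SE 0.11, limma adjusted p = 4.2e-04). Scaled to the ERCC standards instead, which moved the median log2 difference of all features from 0.34 to 0.81, the Igf2r difference was -0.24 and was not called (adjusted p = 0.365). ERCC scaling divides all values of a library by 1 factor, so it could hardly change the side of that median on which Igf2r lies. Whether the amount of Igf2r differed between the fractions rests on the scaling.

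The assembled plus-strand locus matched to Airn was at 130534, 121725 and 112814 in chromatin and at 7106, 6649 and 6687 in nucleoplasm. It was higher in chromatin by 4.16 on the log2 scale (SE 0.10, limma adjusted p = 1.3e-05), and it began 43.5 kb before the annotated Airn start, further inside Igf2r. A second plus-strand locus inside Igf2r starts at 12741425, just past the annotated Airn start at 12741311, and lies within the span of the first locus. This second locus was at 17243, 16441 and 19904 in chromatin and at 853, 856 and 1226 in nucleoplasm. Its log2 difference was 4.21, and it is not shown to be an RNA separate from Airn. Per library, Airn stood at 8.73, 7.19 and 8.13 times the Igf2r value in chromatin and at 0.230, 0.218 and 0.237 times in nucleoplasm. These ratios compare counts that are not scaled for length, so only their difference between fractions is read. It was 5.13 on the log2 scale, or 35.0-fold (exact permutation test, two-sided, p = 0.1, the smallest possible; adjusted over the 3 ratios, 0.15).

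Dlk1, a paternally expressed transmembrane protein of the Notch ligand type, had 7 RefSeq transcripts on chromosome 12 and was listed at 0 in every short-read library. Meg3, the maternally expressed noncoding RNA of the same domain, was between 0.725 and 2.10 normalized counts, under the limit of 3 reads in all 6 libraries. Rian of the same domain was at 2.03, 1.05 and 4.16 in chromatin and at 0, 0 and 0.725 in nucleoplasm, and was called higher in chromatin (limma adjusted p = 0.0471) on at most 4 reads in any library. Mirg was between 0 and 1.04. The whole Dlk1 domain was thus at or near 0 in both fractions.

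Cdkn1c encodes p57, a maternally expressed inhibitor of cyclin-dependent kinases. It lies on chromosome 7 (143458339 to 143461050, minus strand) and was 1 assembled locus. Its normalized counts were 3064, 3556 and 1089 in chromatin and 12605, 11722 and 6342 in nucleoplasm. All nucleoplasm libraries were above all chromatin libraries, and replicate 3 was the lowest in each fraction. The log2 difference was -2.10 (SE 0.50, limma adjusted p = 0.0115), with -2.04, -1.72 and -2.54 in the same-numbered pairs. Without both libraries of replicate 3 it was -1.88.

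Kcnq1ot1, the paternally expressed noncoding RNA of the Cdkn1c domain, starts 162 kb from Cdkn1c. Its promoter window is shown because its RNA had the largest fraction difference among the named noncoding RNAs; it holds 9 CpG dinucleotides and neither motif.
Kcnq1ot1 (chr7:143296498-143296797, minus strand): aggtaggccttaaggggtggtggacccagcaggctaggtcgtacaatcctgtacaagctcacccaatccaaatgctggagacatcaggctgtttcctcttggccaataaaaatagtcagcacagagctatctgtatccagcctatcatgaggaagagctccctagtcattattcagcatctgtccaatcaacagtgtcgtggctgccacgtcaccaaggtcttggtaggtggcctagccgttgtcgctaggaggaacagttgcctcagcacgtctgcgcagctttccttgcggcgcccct
Kcnq1ot1 was at 2345, 2101 and 1202 in chromatin and at 90.9, 65.9 and 74.6 in nucleoplasm, higher in chromatin by 4.55 on the log2 scale (SE 0.28, limma adjusted p = 3.7e-05). The ratio of Kcnq1ot1 to Cdkn1c was 0.765, 0.591 and 1.10 in chromatin and 0.00722, 0.00562 and 0.0118 in nucleoplasm. The difference of the ratios was 6.67 on the log2 scale, or 102-fold (exact permutation test, two-sided, p = 0.1, the smallest possible; adjusted over the 3 ratios, 0.15). In both domains the protein-coding gene was lower and the noncoding RNA higher in chromatin, whereas H19 and Igf2 were both lower.

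**Figure D3:**
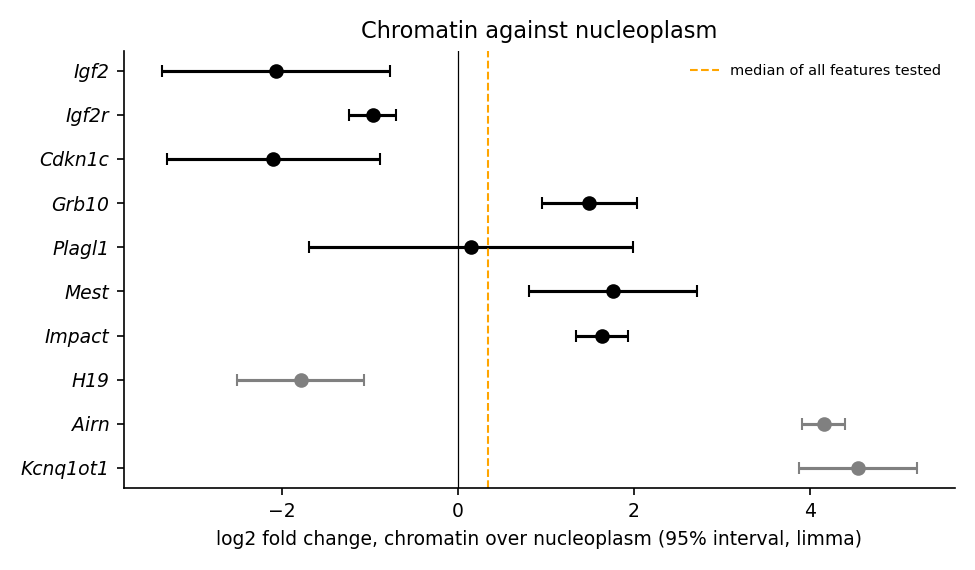
Log2 fold change, chromatin over nucleoplasm, with its 95% interval from limma, for 7 imprinted genes (black) and 3 noncoding RNAs of their domains (grey); the dashed line is the median of all features tested, 0.34. The Plagl1 interval is the only one that spans 0, and Airn and Kcnq1ot1 lie above 4.

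Grb10 encodes an adaptor that binds the insulin and IGF1 receptors and dampens their signal; it is maternally expressed in most tissues. It lies on chromosome 11 (11930508 to 12038683, minus strand) and per kb of exon it was the most abundant of the 10 genes in chromatin. The window of its outer RefSeq start is shown because the assembled locus began in it; it holds 45 CpG dinucleotides and 5 GC boxes, the most of any window found for these genes.
Grb10 (chr11:12037371-12037670, minus strand): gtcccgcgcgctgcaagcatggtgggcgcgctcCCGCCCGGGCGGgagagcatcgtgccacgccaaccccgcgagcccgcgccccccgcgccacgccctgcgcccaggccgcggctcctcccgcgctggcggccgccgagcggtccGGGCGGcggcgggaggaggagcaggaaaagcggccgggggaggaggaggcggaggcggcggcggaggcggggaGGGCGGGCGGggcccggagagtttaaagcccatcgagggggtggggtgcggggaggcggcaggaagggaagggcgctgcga
Grb10 was at 76178, 74821 and 114429 normalized counts in chromatin and at 27953, 27554 and 38022 in nucleoplasm. The fractions did not overlap, and replicate 3 was the highest in each. The log2 difference was 1.49 (SE 0.22, limma adjusted p = 0.00145), close to equal in the 3 pairs at 1.45, 1.44 and 1.59.

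Plagl1 encodes ZAC1, a paternally expressed zinc finger factor of an imprinted growth network. Its RefSeq transcript on chromosome 10 (13090788 to 13131694, plus strand) was at 145, 184 and 42.7 normalized counts in chromatin and at 153, 151 and 36.2 in nucleoplasm. The fractions overlapped, and within both of them replicate 3 stood far under the other two. The log2 difference was 0.15 (95% interval -1.70 to 1.99, limma adjusted p = 0.882), and the sign turned without chromatin replicate 1 (-0.085), chromatin replicate 2 (-0.26) or nucleoplasm replicate 3 (-0.53). That fit does not use the pairs, and its interval includes differences of more than 2-fold in either direction, so it does not show equal fractions. The same-numbered pairs lay closer to one another, at -0.070, 0.29 and 0.23 on the log2 scale. With the replicate block Plagl1 was not called either (limma adjusted p = 0.39).

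Peg3, a paternally expressed zinc finger factor, and Zim1, its maternally expressed neighbour 7.44 kb away, both lie on chromosome 7. All their RefSeq transcripts with a symbol were at 0 in the 6 libraries, as was the antisense Peg3os. A predicted transcript without a symbol that covers most of Peg3 was at 8.13, 13.6 and 12.5 in chromatin and at 7.07, 7.19 and 12.3 in nucleoplasm. These values lie above the limit of 3 reads, their ranges overlap, and the log2 difference of 0.34 was not called (limma by entry, adjusted p = 0.523).

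Mest encodes a paternally expressed protein of the alpha/beta hydrolase family on chromosome 6. Its locus held 10.2, 6.29 and 9.37 normalized counts in chromatin and 3.03, 1.20 and 1.45 in nucleoplasm. These are 10, 6 and 9 reads against 3, 1 and 2, so every nucleoplasm library was at or under the limit of 3 reads. The ratio of the summed reads, 25 against 6, scaled by the summed size factors of the libraries, was 4.60. Its 95% counting interval was 1.84 to 13.7 (exact binomial), which covers counting error only. The fitted log2 difference was 1.76 (SE 0.40, limma adjusted p = 0.00898), and the call was lost with quantile normalization (0.39, adjusted p = 0.526) and with DESeq2 (adjusted p = 0.1). The microRNA Mir335, in an intron of Mest, had a separate entry at 0 in all 6 libraries. Copg2, which overlaps the 3′ end of Mest on the other strand, was at 5787, 5717 and 5309 in chromatin and at 4910, 4855 and 4326 in nucleoplasm. Its difference of 0.26 was not called by entry (limma adjusted p = 0.0525), and was called with the replicate block (adjusted p = 0.0143).

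Impact, a paternally expressed regulator of translation that inhibits the eIF2 alpha kinase GCN2, had the smallest standard error among the genes that rose. It was at 5074, 5189 and 5773 normalized counts in chromatin and at 1683, 1521 and 1974 in nucleoplasm. Each chromatin library was above each nucleoplasm library by a wide margin, and the log2 difference was 1.64 (SE 0.12, limma adjusted p = 7.2e-05). A second assembled piece covers the first part of the gene but starts at 12953398, before the annotated Impact start at 12955852. It is not shown to be part of the Impact RNA. This piece was at 1216, 1085 and 996 in chromatin and at 318, 302 and 245 in nucleoplasm. Its log2 difference of 1.93 (limma by entry, adjusted p = 1.2e-04) had the same direction as that of the main piece.

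Taken by deposited row and not by gene, the 10 genes had 33 entries, of which 13 were above 0 and 7 were called in either direction, beside 47.8% of all 35830 rows tested. Without replicate 3 in both fractions, chosen as an alternative after the values were seen, 6 entries were called and the gene-level counts were again 3 higher and 3 lower.

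Levels of different genes were compared per kilobase of annotated exon, as normalized counts per kb. In chromatin Grb10 led with 9734 (range over libraries 8232 to 12590), followed by Igf2r with 1639 (1491 to 1819), Cdkn1c with 1260 (534 to 1744) and Impact with 1042 (989 to 1126). Igf2r, Cdkn1c and Impact overlapped in part: the Cdkn1c range took in that of Impact and met that of Igf2r. The Impact level counts its main piece only, while the exon length is that of the whole gene. The piece over the first part of Impact, with a mean of 1099 normalized counts in chromatin, is left out, and whether it belongs to Impact is not shown. The order of Impact and Cdkn1c in chromatin is therefore not settled. Igf2 with 24.1 (11.5 to 35.0) and Plagl1 with 15.9 (5.46 to 23.6) also overlapped, and Mest was at 2.18. In nucleoplasm Cdkn1c led with 5014 (3111 to 6182), and its range met those of Grb10 with 3430 (3032 to 4183) and Igf2r with 3207 (3030 to 3318). Impact followed with 336 (297 to 385), then Igf2 with 101 (49.3 to 127), Plagl1 with 14.5 and Mest with 0.480. In nucleoplasm Igf2 and Plagl1 did not overlap, as the highest Plagl1 library was at 19.5.

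Replicate 3 differed from replicates 1 and 2 in both fractions for several of these genes. The ratio of replicate 3 to the mean of the other two was 0.377 in chromatin and 0.389 in nucleoplasm for Igf2, 0.329 and 0.521 for Cdkn1c, and 0.259 and 0.239 for Plagl1. For Grb10 it was 1.52 and 1.37, for Impact 1.13 and 1.23, and for Igf2r 0.870 and 0.919. Among features with a mean of at least 100, the ratios from the 5th to the 95th percentile ran from 0.535 to 1.78 in chromatin and from 0.611 to 1.67 in nucleoplasm. Igf2, Cdkn1c and Plagl1 were thus under the 5th percentile in both fractions, and the other 3 were inside the range. The cardiomyocyte, fibroblast and endothelial sums moved in the same libraries, as given above, and their part in these ratios was not tested. The differences between fractions had the same sign in all 3 same-numbered pairs for each of these genes except Plagl1.

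**Figure D4:**
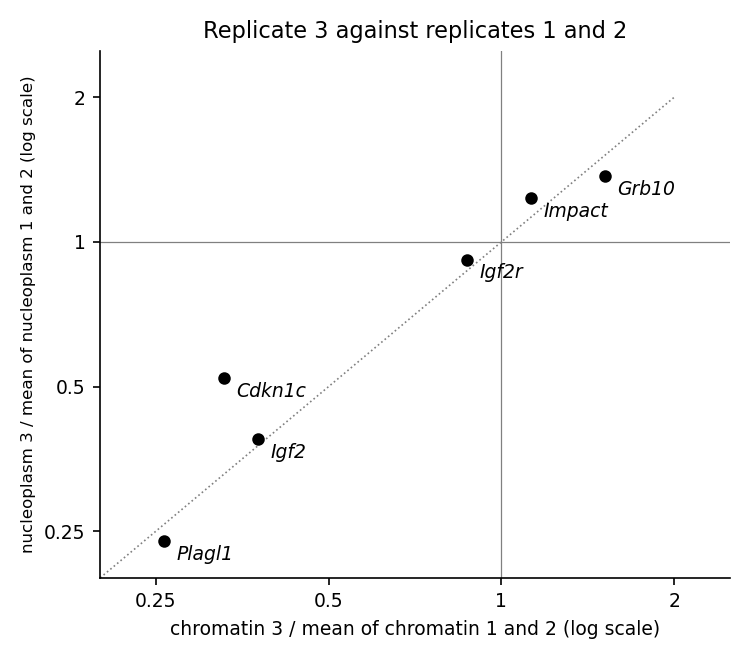
Ratio of replicate 3 to the mean of replicates 1 and 2 in chromatin (x) and in nucleoplasm (y), both on log axes, for the 6 genes with a mean of at least 100 normalized counts. Plagl1, Igf2 and Cdkn1c are low in both fractions, at 0.239 to 0.521, and Grb10 is high in both.

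Of 55 other imprinted protein-coding genes, 42 were above 0 and tested, and 10 of these were higher in chromatin, 13 lower and 19 not called. Over all features tested 31.0% were higher and 24.9% lower, and the list was not tested against these shares. The list's median log2 difference was -0.26, beside 0.34 over all features. The largest rises among those with a mean of at least 100 were Cobl, an actin nucleator, at 2.47, Ppp1r9a, a neuronal actin-binding protein, at 1.55, and Tnfrsf23, a TRAIL receptor, at 1.48. The largest falls were Dcn, a matrix proteoglycan, at -2.47, Phlda2, a growth restrictor of the Cdkn1c domain, at -2.09, and Dhcr7, an enzyme of cholesterol synthesis, at -1.88. With ERCC scaling 14 of the list were higher and 6 lower, so the balance of the list turns with the scaling. Dcn is also a fibroblast product, and it was at 63.5 and 350.1 in chromatin and nucleoplasm replicate 3, above 20.3 to 31.4 and 141 to 151 in the others.

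A list of IGF and growth control genes, drawn up around the partners of these genes, held 30 genes, of which 25 were tested, 6 higher in chromatin and 12 lower, with a median of -0.47; the shares over all features were 31.0% and 24.9%. Among ligands and receptors, Insr, the insulin receptor, rose by 1.48, and M6pr, the smaller mannose 6-phosphate receptor, fell by 1.65. Igf1r, the receptor through which IGF2 signals, had a difference of 0.29 that was not called (limma adjusted p = 0.0908), and was called higher with the replicate block (adjusted p = 0.0231). Of 6 tested binding proteins, which hold IGFs outside cells, 5 were lower, with Igfbp2 at -2.81 and Igfbp4 at -2.21. Igfbp1 was called higher from 7.12, 9.43 and 38.5 normalized counts in chromatin against 0 in nucleoplasm. Of 5 tested inhibitors of cyclin-dependent kinases beside Cdkn1c, 4 were lower, led by Cdkn2a at -2.60. Among adaptors, Grb14, of the same adaptor family as Grb10, rose by 1.67 and Irs2, a receptor substrate, by 1.44, while Grb2, an adaptor to the Ras pathway, fell by 1.59. Of the 3 mRNA-binding proteins of the Igf2bp family, Igf2bp1 was higher by 0.50 and the other two were not called; with the replicate block Igf2bp3, at 0.52, was called higher (limma adjusted p = 0.0044).

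The 2 long-read libraries of chromatin gave transcript abundance as TPM, with no nucleoplasm counterpart and therefore no test; TPM does not hold the read count behind a value, so no counting interval is given. Counting all transcripts that overlap the gene on its own strand, Cdkn1c was at 105 and 47.9 TPM in libraries 1 and 2, and Grb10 at 45.1 and 54.3, of which 11.1 and 12.8 belonged to LOC102631979, a separate RefSeq gene inside Grb10; transcripts with the symbol Grb10 summed to 34.0 and 41.0. Impact was at 22.4 and 15.7, and Igf2r at 12.1 and 12.4. Mest was at 0.761 and 1.66, of which 1.51 in library 2 was the Mir335 entry. Igf2 and Plagl1 were seen only in library 1, at 0.362 and 0.192, and Dlk1, Peg3 and Zim1 were at 0 in both. Thus 5 genes were above 0 in both libraries, but only 2 (Grb10 and Impact) when transcripts had to lie wholly inside the annotated gene. Apart from LOC102631979, Grb10 had under that rule 0 and 0.581 TPM, which leaves Impact alone above 0 in both libraries. The Cdkn1c transcripts reach 23 bases past the annotated start, and the Igf2r transcript 7487 bases past it, so the stricter rule gave these genes 0.

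Transcripts on the opposite strand were also listed in the long-read table, which was assembled from reads without strand. Over Igf2r they summed to 87.7 and 79.0 TPM and included the annotated Airn transcripts. Within the whole Airn gene, on the Airn strand, all transcripts summed to 139 and 113 TPM. Those with the symbol Airn summed to 31.5 and 38.0, and a single assembled model gave 54.5 and 36.3. Over Grb10 the opposite strand held 47.3 and 17.0 TPM in 5 assembled models, over Impact 19.6 and 27.0 in 5, and over Cdkn1c 4.69 and 14.6 in 1 model that spans nearly the whole gene. In the stranded short-read table no row with a mean of at least 10 lay on the opposite strand of these 3 genes. Over Mest the opposite strand held 10.7 and 12.7 TPM, nearly all of it Copg2. Of the other noncoding RNAs, H19 was at 4.21 and 4.43 TPM and Kcnq1ot1 at 1.78 and 0.604.

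**Figure D5:**
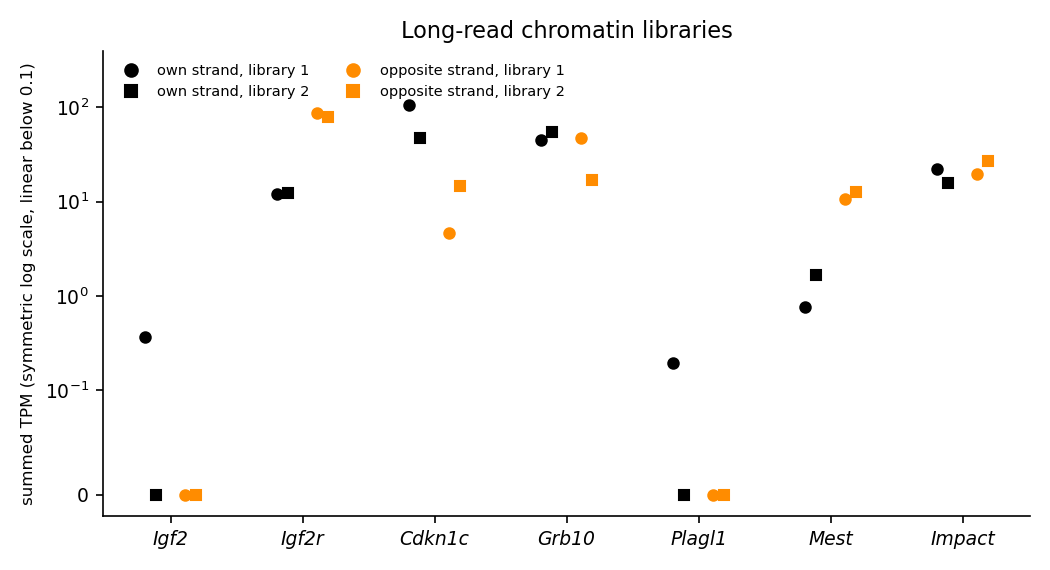
Summed TPM of long-read transcripts that overlap each gene on its own strand (black) and on the opposite strand (orange) in the 2 chromatin libraries, on a symmetric log axis that is linear below 0.1. Impact has values of similar size on both strands, Grb10 has 45.1 and 54.3 on its own strand and 47.3 and 17.0 on the opposite one, and Igf2r has more on the opposite strand, where Airn lies.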

How the data were processed

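Short-read RNA of HL1 chromatin (3 libraries) and nucleoplasm (3), and long-read chromatin RNA (2), were analysed; the titles gave the fraction, since a label field reads chromatin for all. The authors aligned short reads with HISAT2 2.1.0 to mm10, assembled and re-estimated transcripts with StringTie, and deposited gene counts divided by a DESeq2 size factor per library (normalized counts, a signal not scaled for length). For long reads (minimap2, StringTie) they deposited TPM. All values (100%) were whole multiples of 1 read within 0.001, so reads were recovered; they derive from transcript coverage, and intervals and limits cover counting error only. Replicates differed beyond sampling noise (chi-square per row 50.6 to 2477).

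A gene's level was the same-strand assembled locus sharing at least 0.5 of the joint span with its GENCODE M21 gene (GRCm38), or else the sum of its RefSeq transcripts. Features above 0 in at least 1 library were tested on the log2(normalized count + 1) scale with limma-trend (limma 3.58.1, R 4.3.3), chromatin against nucleoplasm, called at a Benjamini-Hochberg adjusted p under 0.05. Fold changes on this scale understate low genes. Ratios used an exact permutation test (scipy 1.17.1). Alternatives included edgeR 4.0.16 and DESeq2 1.42.0 on recovered reads, pseudocounts of 0.1 and 5, a mean of at least 10, other scalings, other gene definitions, and left-out libraries. Functions were tested on simulated data. The replicate numbers were taken to pair the fractions: the labels describe independent cultures, and deviations of same-numbered libraries correlated at 0.174, 0.172 and 0.398. Across numbers, replicates 1 and 2 correlated at 0.106 and 0.149, and replicate 3 with the others at -0.268 to -0.221. Only replicate 3 was thus clearly matched by these correlations. The p-values measure the spread among these cultures.

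The 10 genes, all lists and the rule for named genes (all 10; from each list the largest rises and falls among called genes with a mean of at least 100) were chosen with earlier results of these data known. Markers of cardiomyocytes, fibroblasts and endothelium were listed likewise.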

Additional observations from a re-analysis of the deposited data

How the results depend on the processing

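The count of genes higher in chromatin was 3, and it was 0 with RefSeq transcripts only, a setting that drops the assembled loci; the count of genes lower was 3, and it was 1 with RefSeq transcripts only and 1 with no filter on low values (adjusted p 0.0616 for Igf2 and 0.0502 for Cdkn1c). Leaving out single libraries gave 3 to 3 higher, 2 to 3 lower and 5 to 8 called entries. Of the other imprinted genes, 10 were higher and 13 lower; RefSeq transcripts only gave 2 and 1, ERCC scaling gave 14 higher and 6 lower, and leaving out libraries gave 8 to 11 and 12 to 18. The Plagl1 log2 difference turned to -0.25 with quantile normalization, and leaving out single libraries gave -0.53 to 0.79, with -0.085 and -0.26 among the values below 0. Long-read genes above 0 in both libraries were 2 when inside the gene on its own strand, 4 with both strands and 5 with any overlap. With the replicate block, for which the replicates are paired by number, 3 genes were higher and 3 lower, 8 entries were called against 7, and the other imprinted genes counted 12 higher and 17 lower; the block changed no call of the 10 genes. Calls of Grb10 and Impact were the same in all 21 alternatives. The cause of these changes was not tested, apart from the settings that drop entries or libraries. Depth limits Mest and the genes at 0, and 3 libraries per fraction limit the rest.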
